A study of Mus musculus with 8 samples.

Results

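The Tet dioxygenases and the enzymes that make, use or protect their co-substrate 2-oxoglutarate were examined in sorted cells of the mouse small intestine. The set was 9 genes out of 37620 Ensembl genes in each library: Tet1, Tet2, Tet3, Tdg, Idh1, Idh2, Idh3a, Ogdh and D2hgdh. They were chosen by name, with earlier results of these data known. Epithelial cells were sorted by flow cytometry for the surface glycoprotein CD24, with CD45-positive leukocytes and cells binding Ulex europaeus agglutinin I, a fucose-binding lectin, depleted from both groups. CD24Mid cells, called CD24low elsewhere by the submitters, gave 4 libraries (replicates 1, 3, 5 and 7), and CD24Neg cells gave 4 libraries (replicates 2, 4, 6 and 8). The replicates are stated to be biological. No treatment was applied, and the sources used here give no strain, age, sex or number of animals behind a library. The series title names hydroxymethylcytosine in intestinal differentiation, and the comparison addressed here is whether the cells differ in the transcripts of its writers and of their co-substrate's enzymes.

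Tet enzymes are iron-dependent dioxygenases that oxidise 5-methylcytosine to 5-hydroxymethylcytosine and on to 5-formylcytosine and 5-carboxylcytosine. They consume oxygen and 2-oxoglutarate and release succinate, and thymine DNA glycosylase, encoded by Tdg, cuts out the most oxidised bases for replacement by cytosine. 2-oxoglutarate is made from isocitrate by the isocitrate dehydrogenases and is burned in mitochondria by the 2-oxoglutarate dehydrogenase complex. D-2-hydroxyglutarate, a close analogue, competes with it at Tet enzymes, and D2hgdh turns that analogue back into 2-oxoglutarate. In the intestine, dividing crypt cells give rise to absorptive and secretory cells that move up the villus.

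Unique counts, the fragments assigned to 1 gene only, totalled 15473071 to 17537818 in CD24Mid libraries and 11340782 to 18928233 in CD24Neg libraries. Mitochondrially encoded genes took 8.03% to 9.18% of them in CD24Mid libraries and 27.7% to 37.0% in CD24Neg libraries, so counts were normalised by the trimmed mean of M-values (TMM) and are given as CPM, scaled to library size. All 6 epithelial markers examined were detected, with summed levels of 6476 to 8772 CPM in CD24Mid libraries and 10204 to 12449.6 CPM in CD24Neg libraries. Single epithelial markers went both ways between the groups, with a median log2 fold change, CD24Mid over CD24Neg, of -0.083. Summed markers of crypt base stem cells stood at 2936 to 3885 CPM in CD24Mid libraries and 89.8 to 319 CPM in CD24Neg libraries. Enterocyte markers stood at 834 to 1350.3 CPM in CD24Mid libraries and 23567 to 41168 CPM in CD24Neg libraries. Other cell types also differed: goblet markers were at 2577 to 3779 CPM in CD24Mid libraries and 7891 to 23311 CPM in CD24Neg libraries, and enteroendocrine markers at 247 to 548 CPM in CD24Mid libraries and 63.1 to 90.9 CPM in CD24Neg libraries. Markers of B and plasma cells summed to 389.7 to 1002 CPM in CD24Mid libraries and 21.8 to 53.0 CPM in CD24Neg libraries. T cell markers summed to 5.67 to 16.2 CPM in CD24Mid libraries, against 411, 24.7, 65.9 and 312 CPM in CD24Neg replicates 2, 4, 6 and 8. The part of these cell mixtures in the differences below was not tested, and in bulk samples fewer cells of a type and less RNA per cell cannot be told apart.

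All 9 genes passed the filter on low counts, Tet1 through its CD24Mid libraries alone, since 4 of 4 CD24Mid and 0 of 4 CD24Neg libraries reached the filter's level. A gene that passes in this way had to differ, so the call of Tet1 adds nothing to the count. Of the 9 genes, 7 differed between the groups by edgeR's quasi-likelihood test (adjusted p under 0.05 over 12840 genes), where 69.8% of all genes tested did so. Tet1, Tdg and Idh2 were higher in CD24Mid cells, a direction called for 35.5% of all genes tested. Tet2, Idh1, Ogdh and D2hgdh were lower in CD24Mid than in CD24Neg cells, a direction called for 34.3%. Tet3 and Idh3a did not pass the threshold. The CPM ranges of the groups did not overlap for 8 of the 9 genes, all but Tet2, against 64.4% of all genes tested. Tet1 adds nothing to this count either. Both shares lie near what most genes did in this comparison, so the results are the size and direction of each gene's difference. The log2 fold changes, CD24Mid over CD24Neg, ran from -2.0 for Idh1 to 3.10 for Tet1 with a median of -0.23, beside a median of 0.015 over all genes tested. With another library scaling the direction of Tet2, Tet3, Idh3a and D2hgdh turned, and those values are given further on.

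**Figure D1:**
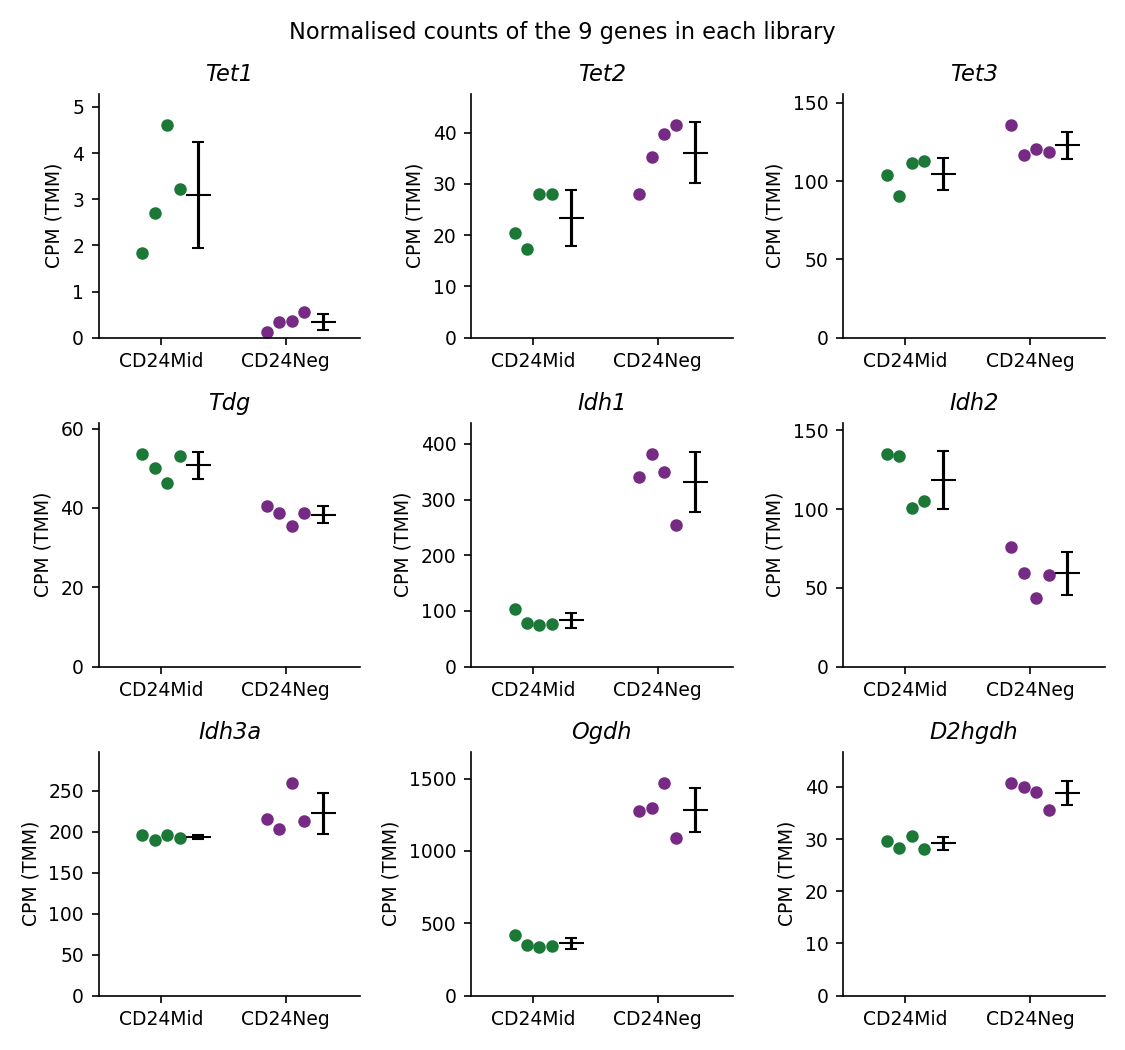
Normalised counts (CPM, TMM-scaled, linear axes from 0) of each of the 9 genes in the 4 CD24Mid libraries (green, left) and the 4 CD24Neg libraries (purple, right), with the mean and SD beside the points. Tet1 lies at 1.84 to 4.60 CPM in CD24Mid libraries and at 0.127 to 0.552 CPM in CD24Neg libraries, and Idh1 and Ogdh are far lower in CD24Mid, while only the Tet2 points of the groups touch.

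The start of a gene is where Tet enzymes and cytosine methylation are most often studied, so the 250 bases before the first RefSeq start listed are shown for 4 genes, 2 higher in CD24Mid (Tet1 and Idh2), 1 lower in CD24Mid (Idh1) and 1 below the threshold (Tet3). They are RefSeq sequences of build GRCm38.p6, all on the minus strand, read 5′ to 3′ with CG dinucleotides, the usual substrate of methylation, in capitals. Tet1 is at chr10:62887325-62887574, Idh2 at chr7:80115351-80115600, Idh1 at chr1:65186480-65186729 and Tet3 at chr6:83441679-83441928.
Tet1: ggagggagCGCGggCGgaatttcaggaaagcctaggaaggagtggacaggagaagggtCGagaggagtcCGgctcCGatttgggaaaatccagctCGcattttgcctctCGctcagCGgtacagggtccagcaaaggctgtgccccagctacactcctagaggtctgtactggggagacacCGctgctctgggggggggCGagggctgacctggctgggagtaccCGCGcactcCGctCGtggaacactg
Idh2: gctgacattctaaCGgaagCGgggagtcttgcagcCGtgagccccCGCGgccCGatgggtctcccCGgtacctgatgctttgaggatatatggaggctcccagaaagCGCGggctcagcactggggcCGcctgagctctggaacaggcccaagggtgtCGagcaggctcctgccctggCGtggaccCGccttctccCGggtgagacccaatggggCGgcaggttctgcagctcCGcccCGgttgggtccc
Idh1: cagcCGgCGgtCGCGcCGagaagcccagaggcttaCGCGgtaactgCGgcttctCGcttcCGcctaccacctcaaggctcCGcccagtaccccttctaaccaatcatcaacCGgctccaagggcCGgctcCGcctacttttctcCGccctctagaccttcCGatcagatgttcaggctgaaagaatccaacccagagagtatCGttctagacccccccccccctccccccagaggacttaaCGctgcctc
Tet3: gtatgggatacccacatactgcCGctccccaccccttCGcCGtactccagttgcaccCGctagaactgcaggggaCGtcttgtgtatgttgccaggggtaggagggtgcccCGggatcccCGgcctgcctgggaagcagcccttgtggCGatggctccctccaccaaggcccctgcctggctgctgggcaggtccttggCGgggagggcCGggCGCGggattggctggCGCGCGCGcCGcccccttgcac
These stretches hold 15 CG dinucleotides for Tet1, 17 for Idh2, 18 for Idh1 and 17 for Tet3, where the median of 27025 mouse promoters of the same length was 6. The 4 genes shown are a choice, and whether the number of CG dinucleotides goes with the differences was not tested. Of the genes not shown, Tdg held 19, Ogdh 18 and D2hgdh 10. The Tet2 stretch held 51, and 99.93% of the promoters held fewer. A promoter was found for 8 of the 9 genes, and in these 8 the letters CCAAT, on either strand, occurred in Idh1, Tet3, Idh2, Tdg and Ogdh, as in 34.5% of all promoters. TGACGTCA occurred in Tdg and Ogdh and in 1.62% of all promoters. TTTCCCGC, TTTGGCGC, the palindromic NRF1 motif and CAAAGTCCA, held by 0.929%, 0.437%, 0.781% and 0.381% of all promoters, were not found in these windows, and no matches of different motifs overlapped. A match of letters is a description and not a bound site.

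Tet1, the family member with a DNA-binding CXXC domain best known from embryonic stem cells, was the most uneven of the 9 genes and also the least abundant. It had 1.84, 2.70, 4.60 and 3.22 CPM in CD24Mid replicates 1, 3, 5 and 7, against 0.127, 0.347, 0.363 and 0.552 CPM in CD24Neg replicates 2, 4, 6 and 8. Every CD24Mid library was above every CD24Neg library, and the lowest CD24Mid value was over 3 times the highest CD24Neg value. The means were 3.09 ± 1.16 CPM in CD24Mid cells and 0.347 ± 0.174 CPM in CD24Neg cells (SD, n = 4 each). The log2 fold change was 3.10 ± 0.42 (SE; edgeR adjusted p = 6.64e-05), a value that follows in part from how the gene passed the filter and is imprecise at this depth. The CD24Neg level rests on 14 reads over 4 libraries, against 286 reads in CD24Mid, and 3 reads correspond to 0.218 to 0.38 CPM in CD24Neg libraries. The scaled ratio of these reads was 8.85 with a 95% exact interval of 5.19 to 16.4, which covers counting error only.

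Tet2, which lacks a CXXC domain of its own and is known for its loss in blood cell clones, went the other way. It had 20.3, 17.3, 28.0 and 28.0 CPM in CD24Mid replicates 1, 3, 5 and 7, against 28.0, 35.3, 39.7 and 41.4 CPM in CD24Neg replicates 2, 4, 6 and 8. The ranges just overlapped: CD24Mid replicate 7 (28.04 CPM) was above and CD24Mid replicate 5 (27.98 CPM) below CD24Neg replicate 2 (27.99 CPM), the lowest of its group. The means were 23.4 ± 5.46 CPM in CD24Mid cells and 36.1 ± 5.99 CPM in CD24Neg cells (SD, n = 4 each), with a log2 fold change of -0.63 ± 0.18 (SE; edgeR adjusted p = 0.00959). That call was lost without CD24Neg replicate 6 (log2 fold change -0.52, edgeR adjusted p = 0.0619) or without CD24Neg replicate 8 (-0.51, edgeR adjusted p = 0.0654). T cell markers were highest in CD24Neg replicates 2 and 8. Without both of them, an alternative chosen after seeing the data, the log2 fold change of Tet2 was -0.66 (edgeR adjusted p = 0.0312). In CD24Neg replicates 4 and 6 these markers, at 24.7 and 65.9 CPM, still exceeded the 5.67 to 16.2 CPM of CD24Mid libraries. The part of T cells in the Tet2 difference was not tested.

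Tet3, the family member known for oxidising the paternal genome in the mouse zygote, had the highest level of the 3 per length. It had 104, 90.4, 112 and 113 CPM in CD24Mid replicates 1, 3, 5 and 7, against 136, 117, 121 and 119 CPM in CD24Neg replicates 2, 4, 6 and 8. The ranges did not overlap, although the gap between 113 and 117 CPM was smaller than the spread within either group. The log2 fold change was -0.23 ± 0.11 (SE), with a 95% interval from -0.46 to 0.0015 (edgeR adjusted p = 0.0709).

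Tdg had 53.5, 50.1, 46.3 and 53.1 CPM in CD24Mid replicates 1, 3, 5 and 7, against 40.5, 38.7, 35.6 and 38.6 CPM in CD24Neg replicates 2, 4, 6 and 8. All CD24Mid libraries were above all CD24Neg libraries, by a small margin that repeated closely within each group. The log2 fold change was 0.41 ± 0.09 (SE; edgeR adjusted p = 0.00249). Tdg has near-identical copies: 44.5% of its 40-base words occur in another gene of GENCODE M21, most of them in the pseudogene Tdg-ps (33.2%), so its unique counts are uncertain. Estimated counts that include shared reads were 1.57 to 1.79 times the unique ones, and with them the log2 fold change was 0.43 (edgeR adjusted p = 0.00149).

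The 3 isocitrate dehydrogenases behaved differently from each other. Idh1 encodes the NADP-dependent enzyme of the cytosol and peroxisomes, and its fold change was the lowest of the 9 genes. It had 104, 77.6, 74.0 and 76.6 CPM in CD24Mid replicates 1, 3, 5 and 7, against 340.2, 381, 349.5 and 254 CPM in CD24Neg replicates 2, 4, 6 and 8. The groups were far apart, with CD24Mid replicate 1 above the other 3 CD24Mid libraries. The means were 83.02 ± 14.0 CPM in CD24Mid cells and 331 ± 54.4 CPM in CD24Neg cells (SD, n = 4 each), and the log2 fold change was -2.0 ± 0.16 (SE; edgeR adjusted p = 1.29e-06), which is 3.99-fold lower.

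Idh2 encodes the NADP-dependent enzyme of mitochondria. It had 135, 134, 101 and 105 CPM in CD24Mid replicates 1, 3, 5 and 7, against 76.1, 59.5, 43.3 and 58.0 CPM in CD24Neg replicates 2, 4, 6 and 8. All CD24Mid libraries were above all CD24Neg libraries, although replicates 1 and 3 exceeded 5 and 7 by about as much as the gap between the groups. The log2 fold change was 1.0 ± 0.17 (SE; edgeR adjusted p = 0.000341), which is 2.01-fold higher.

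Idh3a encodes the catalytic subunit of the NAD-dependent enzyme of the citric acid cycle. It had 196, 189.9, 195 and 192 CPM in CD24Mid replicates 1, 3, 5 and 7, against 215, 203, 259 and 212 CPM in CD24Neg replicates 2, 4, 6 and 8. The CD24Mid values were nearly equal and just below the CD24Neg values, of which replicate 6 was the highest. The log2 fold change was -0.20 ± 0.10 (SE), with a 95% interval from -0.43 to 0.03 (edgeR adjusted p = 0.107). Idh3b and Idh3g, its partner subunits, named after their values were seen, had log2 fold changes of 0.01 (edgeR adjusted p = 0.969) and 0.03 (edgeR adjusted p = 0.842).

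Ogdh encodes the subunit of the 2-oxoglutarate dehydrogenase complex that decarboxylates 2-oxoglutarate. It had 419, 352, 337 and 345 CPM in CD24Mid replicates 1, 3, 5 and 7, against 1276, 1300.2, 1467 and 1089 CPM in CD24Neg replicates 2, 4, 6 and 8. Every CD24Mid library was below every CD24Neg library by more than the spread within either group. The means were 363 ± 37.8 CPM in CD24Mid cells and 1283 ± 155 CPM in CD24Neg cells (SD, n = 4 each), and the log2 fold change was -1.82 ± 0.14 (SE; edgeR adjusted p = 1.06e-06), which is 3.53-fold lower. Of all genes tested, 8.91% had a lower fold change than Ogdh and 8.01% a lower one than Idh1.

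D2hgdh had 29.5, 28.4, 30.6 and 28.1 CPM in CD24Mid replicates 1, 3, 5 and 7, against 40.7, 39.9, 39.0 and 35.5 CPM in CD24Neg replicates 2, 4, 6 and 8. The ranges did not overlap, and both groups were tight. The log2 fold change was -0.41 ± 0.09 (SE; edgeR adjusted p = 0.00202), 1.33-fold lower. Of its 40-base words, 18.6% occur in another gene of GENCODE M21, so its unique counts are uncertain too.

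Levels of different genes were compared per length, on the deposited estimate read as FPKM, fragments scaled by gene length and by mapped fragments. This scale is not corrected for the mitochondrial share, so it serves for the order of genes within a group. In CD24Mid cells the order was Ogdh at 146 ± 14.5, Idh3a at 144 ± 5.79, Idh2 at 112 ± 13, Idh1 at 58.6 ± 6.87, Tdg at 47.2 ± 2.33, D2hgdh at 15.3 ± 1.12, Tet3 at 14.2 ± 1.77, Tet2 at 3.78 ± 0.989 and Tet1 at 0.406 ± 0.152 FPKM (SD, n = 4). Neighbours whose ranges overlapped were Ogdh with Idh3a and D2hgdh with Tet3. In CD24Neg cells Ogdh led at 294 ± 33.2, followed by Idh1 at 118 ± 22.7, Idh3a at 88.6 ± 12.3, Idh2 at 29.8 ± 5.55, Tdg at 18.4 ± 1.05, D2hgdh at 10.6 ± 0.577, Tet3 at 8.80 ± 0.439, Tet2 at 3.07 ± 0.534 and Tet1 at 0.0226 ± 0.0135 FPKM (SD, n = 4). There Idh1 and Idh3a overlapped, and no other neighbours did. Idh1 held place 4 of the 9 genes in CD24Mid cells and place 2 in CD24Neg cells, and the places of the 5 least abundant genes were the same in both.

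**Figure D2:**
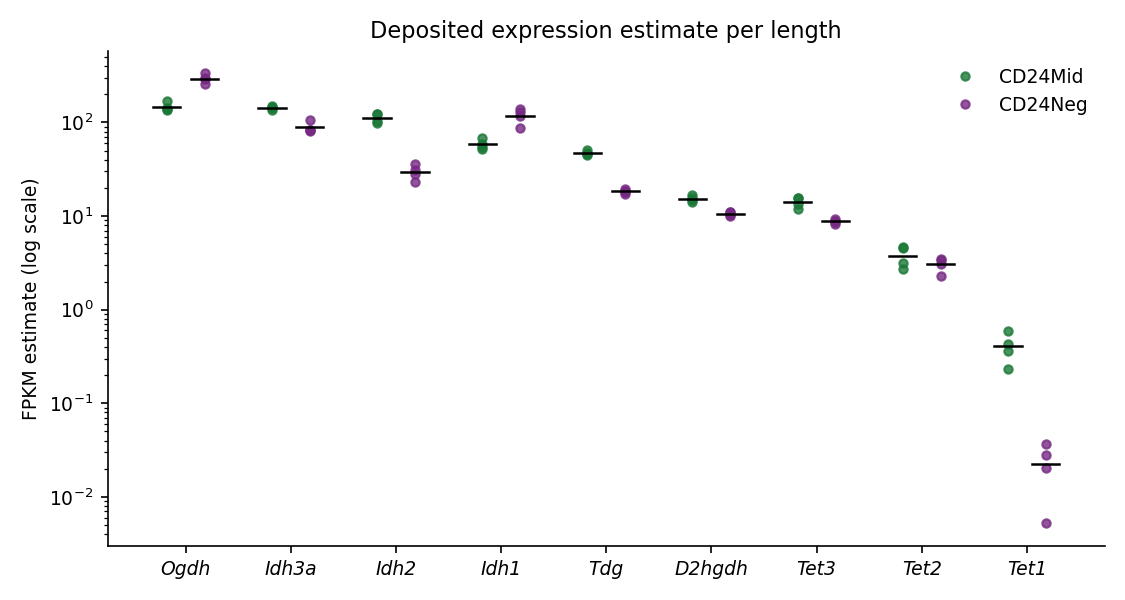
Deposited expression estimate per length (FPKM, logarithmic axis) of the 9 genes in each CD24Mid library (green) and each CD24Neg library (purple), with lines at the group means. Tet1 lies lowest in both groups, at 0.406 FPKM in CD24Mid and 0.0226 FPKM in CD24Neg, and Ogdh has the highest mean in both.

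Within the Tet family, Tet3 made up most of the summed FPKM, at a mean of 77.5% in CD24Mid and 74.0% in CD24Neg. Tet2 held 20.4% in CD24Mid and 25.8% in CD24Neg. Tet1 held 1.36%, 2.42%, 2.88% and 2.10% in CD24Mid replicates 1, 3, 5 and 7, against 0.045%, 0.313%, 0.163% and 0.237% in CD24Neg replicates 2, 4, 6 and 8. The large fold change of Tet1 thus moved a small part of the Tet transcripts. Of the summed FPKM of Idh1, Idh2 and Idh3a, which leaves out Idh3b and Idh3g, these 3 genes held 18.6%, 35.7% and 45.7% in CD24Mid. In CD24Neg they held 49.7%, 12.7% and 37.6%.

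Ratios of 2 genes within a library do not depend on how libraries are scaled, and 6 pairs were compared on unique counts per effective length. Idh1 over Idh2 was 0.548, 0.419, 0.561 and 0.569 in CD24Mid replicates 1, 3, 5 and 7, against 3.22, 4.53, 5.62 and 3.11 in CD24Neg replicates 2, 4, 6 and 8. Idh2 was the more abundant of the pair in every CD24Mid library and Idh1 in every CD24Neg library, a log2 difference of -2.94 ± 0.23 (SE). Idh3a over Ogdh was 0.851, 0.988, 1.10 and 1.03 in CD24Mid libraries, against 0.283, 0.281, 0.319 and 0.325 in CD24Neg libraries, a log2 difference of 1.71 ± 0.10 (SE). Transcripts of the 2 genes were about level in CD24Mid libraries, while Ogdh exceeded Idh3a about 3 times in CD24Neg libraries.

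Set against Tet3, the most abundant Tet, Idh1 stood at 5.02, 4.32, 3.57 and 3.78 in CD24Mid libraries and at 12.6, 16.3, 14.5 and 10.7 in CD24Neg libraries (log2 difference -1.69 ± 0.17, SE). Idh2 over Tet3 was 9.15, 10.3, 6.37 and 6.65 in CD24Mid libraries, against 3.90, 3.59, 2.58 and 3.43 in CD24Neg libraries (log2 difference 1.25 ± 0.21, SE). Relative to Tet3, transcripts of the cytosolic and of the mitochondrial enzyme thus differed in opposite directions. Tet1 over Tet3 was 0.0139 to 0.0314 in CD24Mid libraries and 0.000717 to 0.00358 in CD24Neg libraries (log2 difference 3.41 ± 0.59, SE). In these 5 pairs the groups did not overlap. Each had p = 0.0286 by a two-sided exact permutation test, the smallest that 70 splits of 8 libraries allow. Adjusted over the 6 pairs this was 0.0343. The pairs share genes and are not separate results, since Idh1 over Idh2 is Idh1 over Tet3 divided by Idh2 over Tet3. Idh1 over Idh2 and Idh2 over Tet3 had to separate, since the genes of each pair already lay apart in CPM in opposite directions. Their p-values thus add nothing to the CPM values. The Tet1 over Tet3 result adds no support, since Tet1 passed the filter on low counts through CD24Mid alone. Its CD24Neg counts were 14 reads in all. Tet2 over Tet3 was 0.233, 0.228, 0.298 and 0.296 in CD24Mid libraries, against 0.247, 0.359, 0.392 and 0.414 in CD24Neg libraries. CD24Neg replicate 2 lay among the CD24Mid libraries, and the log2 difference of -0.40 ± 0.20 (SE) did not pass (exact permutation p = 0.0857).

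**Figure D3:**
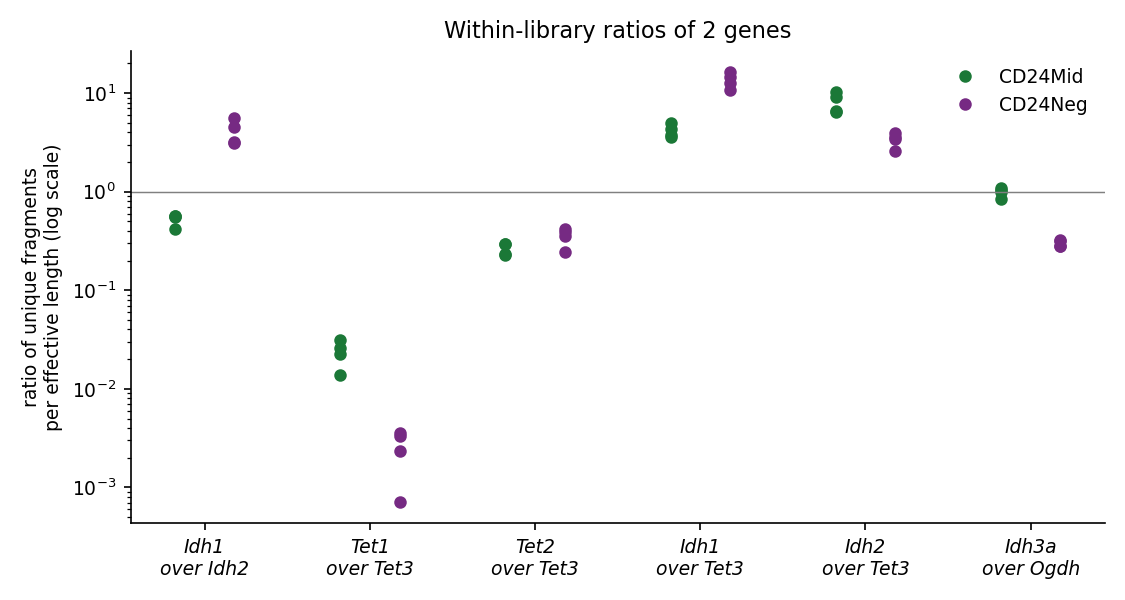
Within-library ratios of unique counts per effective length (logarithmic axis) for 6 pairs of genes, in the 4 CD24Mid libraries (green, left) and the 4 CD24Neg libraries (purple, right). The Idh1 over Idh2 ratio lies at 0.419 to 0.569 in CD24Mid and at 3.11 to 5.62 in CD24Neg, and the Tet2 over Tet3 ratio is the one pair whose groups overlap.

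Library scaling changed the smaller differences. Without any scaling of library totals all genes had a median log2 fold change of 0.96, and 84.4% of called genes were higher in CD24Mid, where TMM gave 50.8%. With totals that leave out mitochondrially encoded genes these were 0.52 and 73.1%, and with upper-quartile factors 0.24 and 61.4%. Tet1, Tdg and Idh2 were higher, and Idh1 and Ogdh lower, in CD24Mid cells under all 5 scalings, each called. The limit given above for Tet1, from the filter, holds for these calls too. Tet2 was at -0.40 with upper-quartile factors, -0.11 without mitochondrial genes and 0.32 unscaled. D2hgdh was at -0.19, 0.10 and 0.53 in the same order, Tet3 at -0.01, 0.28 and 0.72, and Idh3a at 0.02, 0.31 and 0.74. Relative to the median of all genes in the same fit, the log2 fold change over 17 settings lay between -0.78 and -0.51 for Tet2, -0.54 and -0.40 for D2hgdh, -0.36 and -0.17 for Tet3, and -0.36 and -0.15 for Idh3a. These 4 genes were thus below the typical gene in each setting run, while their absolute direction depended on the scaling.

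**Figure D4:**
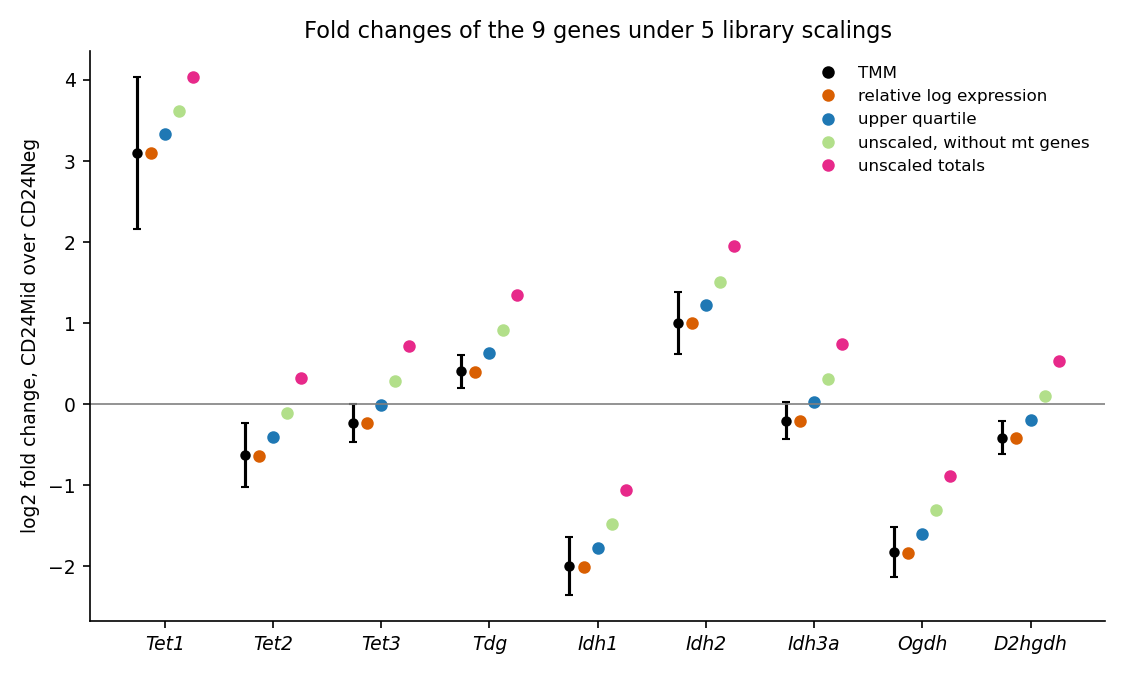
Log2 fold change, CD24Mid over CD24Neg, of each of the 9 genes under 5 library scalings, with the 95% interval of the TMM fit as a bar. Idh1 at -2.0 and Ogdh at -1.82 stay below 0 and Tet1, Tdg and Idh2 above 0 under each scaling, while the points of Tet2, Tet3, Idh3a and D2hgdh lie on both sides of 0.

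The genes around these reactions were counted in 12 lists, read beside the 69.8% of all genes tested that were called. Over all genes tested 35.5% were called higher and 34.3% lower in CD24Mid, with a median log2 fold change of 0.015. A count near these shares describes a list and is not a result about it. Of 17 genes whose reaction can yield 2-oxoglutarate, 14 were tested, 3 were higher and 5 lower in CD24Mid, with a median of -0.10. With unscaled totals 10 were higher and 3 lower (median 0.84), and without mitochondrial genes 8 and 3 (median 0.41), so the balance of this list depended on the scaling. The alanine transaminase gene Gpt averaged 12.7 ± 2.75 CPM in CD24Mid cells and 314 ± 34.8 CPM in CD24Neg cells (SD, n = 4 each; log2 fold change -4.63, edgeR adjusted p = 9.35e-08). The aspartate transaminases parted: cytosolic Got1 was lower (-1.39, edgeR adjusted p = 2.97e-06) and mitochondrial Got2 higher in CD24Mid (0.60, edgeR adjusted p = 0.000885). The malate dehydrogenases Mdh1 and Mdh2, given below, did not part and were both lower in CD24Mid. Psat1, a transaminase of serine synthesis, averaged 19.6 ± 4.32 CPM in CD24Mid cells and 2.84 ± 0.413 CPM in CD24Neg cells (SD, n = 4 each; log2 fold change 2.80, edgeR adjusted p = 6.09e-07). Glud1, glutamate dehydrogenase, named after its values were seen, had a log2 fold change of -0.46 (edgeR adjusted p = 0.0435). Without CD24Neg replicate 6 this was -0.17 (edgeR adjusted p = 0.169). The call of Glud1 was also lost without CD24Mid replicate 1, 3, 5 or 7 (edgeR adjusted p = 0.0698, 0.0713, 0.0679 and 0.102). It was lost as well without CD24Neg replicate 4 (0.0694), with upper-quartile factors (0.258) and with no filter (0.123).

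Of 5 genes of the 2-oxoglutarate dehydrogenase complexes, 1 was higher and 2 lower in CD24Mid (median -0.30). Dlst, the succinyltransferase that works with Ogdh, averaged 200.02 ± 13 CPM in CD24Mid cells and 501 ± 50 CPM in CD24Neg cells (SD, n = 4 each; log2 fold change -1.32, edgeR adjusted p = 2.15e-06), the same direction as Ogdh. The shared subunit Dld was at -0.27 (edgeR adjusted p = 0.0734) and Dhtkd1, of the related 2-oxoadipate complex, at -0.30 (edgeR adjusted p = 0.303). Ogdhl, an Ogdh paralogue, had 224 reads in CD24Mid and 8 in CD24Neg, with a scaled ratio of 12.1 and a 95% exact interval of 6.05 to 28.4. It passed the filter through its CD24Mid libraries alone, so it had to differ, and its count in CD24Neg is too low for a firm fold change.

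Of 5 enzymes known to make 2-hydroxyglutarate, 4 were tested, 1 was higher and 3 lower in CD24Mid. This list does not separate the D form, on which D2hgdh acts, from its mirror image. Adhfe1 fell under the filter, with 30 reads in CD24Mid and 11 in CD24Neg. Phgdh, of serine synthesis, was at 3.79 (edgeR adjusted p = 1.91e-07), and the malate dehydrogenases Mdh1 at -1.79 and Mdh2 at -1.52 and the lactate dehydrogenase Ldha at -0.88 were lower. Of 5 genes that remove succinate or fumarate, products that inhibit Tet enzymes, 3 were lower in CD24Mid: Sdhb at -0.97, Sdhc at -0.45 and Sdhd at -0.71. Sdha at -0.27 (edgeR adjusted p = 0.0677) and Fh1 at 0.17 (edgeR adjusted p = 0.184) did not pass, although Sdha did without CD24Mid replicate 1 (-0.33, edgeR adjusted p = 0.0253) and Fh1 without CD24Neg replicate 2 (0.26, edgeR adjusted p = 0.0436). With unscaled totals 3 of these 5 genes were higher in CD24Mid and 0 lower.

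Upstream of the isocitrate dehydrogenases, both genes of citrate and isocitrate supply examined were lower in CD24Mid: citrate synthase Cs at -1.01 and the cytosolic aconitase Aco1 at -1.27. With unscaled totals 1 of these 2 was called. Of 7 mitochondrial carriers of 2-oxoglutarate, citrate and glutamate, 6 were tested and 5 were lower in CD24Mid. They were the glutamate carrier Slc25a22 (-2.85), the 2-oxoglutarate carrier Slc25a11 (-1.18), the dicarboxylate carrier Slc25a10 (-1.01), the citrate carrier Slc25a1 (-0.62) and the aspartate-glutamate carrier Slc25a13 (-0.57). Slc25a12 was at 0.29 (edgeR adjusted p = 0.136), but at 0.46 without CD24Neg replicate 2 (edgeR adjusted p = 0.02), and Slc25a21 fell under the filter. With unscaled totals 2 of these carriers were higher and 1 lower in CD24Mid, and the share of mitochondrially encoded counts differed between the groups in the same libraries.

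Ascorbate keeps the iron of Tet enzymes reduced, and both of its sodium-coupled carriers were lower in CD24Mid under TMM and with unscaled totals. Slc23a1 had 0.63, 0.511, 0.46 and 0.603 CPM in CD24Mid replicates 1, 3, 5 and 7, against 19.8, 35.6, 34.0 and 30.6 CPM in CD24Neg replicates 2, 4, 6 and 8. The groups were far apart, with a log2 fold change of -5.75 ± 0.24 (SE; edgeR adjusted p = 9.35e-08), which is 53.9-fold lower. Slc23a2 had 48.6, 28.7, 45.8 and 43.9 CPM in CD24Mid libraries, against 146, 172, 182 and 117 CPM in CD24Neg libraries (log2 fold change -1.88, edgeR adjusted p = 6.16e-06).

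Of 5 partners of Tet proteins, 4 were tested. The cofactor Hcfc1 (1.51, edgeR adjusted p = 5.2e-07) and the ubiquitin ligase adaptor Dcaf1 (0.90, edgeR adjusted p = 0.000187) were higher in CD24Mid. The O-GlcNAc transferase Ogt, which binds Tet proteins, was lower at -0.57 (edgeR adjusted p = 0.000456) but at 0.37 with unscaled totals. Cxxc5, a CXXC protein, was at 0.69 (edgeR adjusted p = 0.0599), and passed without CD24Neg replicate 2 (0.99, edgeR adjusted p = 0.0103) or CD24Mid replicate 7 (0.82, edgeR adjusted p = 0.0396), while Cxxc4 fell under the filter. Of 12 genes of base excision repair, not all of which act on oxidised cytosine, 11 were tested, Tdg among them. In CD24Mid 9 were higher and 0 lower, with a median of 0.95, beside 35.5% higher and 34.3% lower over all genes tested. The largest differences were those of the glycosylases Neil3 (3.76), Ung (3.67) and Mbd4 (2.77), all above that of Tdg at 0.41.

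All 6 genes that write or maintain cytosine methylation were higher in CD24Mid, with a median of 2.31. Uhrf1 was at 3.59, Hells at 3.01, Dnmt1 at 2.91, Dnmt3b at 1.70, Uhrf2 at 0.69 and Dnmt3a at 0.26 (edgeR adjusted p = 0.0293). The call of Dnmt3a was lost on estimated counts (0.14, edgeR adjusted p = 0.242), and without CD24Mid replicate 5 (0.20, edgeR adjusted p = 0.0889), CD24Mid replicate 7 (0.26, edgeR adjusted p = 0.055) or CD24Neg replicates 2 and 8 (0.24, edgeR adjusted p = 0.14), which left 5 of 6. All 17 cell cycle genes were also higher in CD24Mid, from 1.33 to 3.74, led by Mcm3 (3.74), Mcm5 (3.63) and Aurkb (3.51). Their summed level was 2241 to 2942 CPM in CD24Mid libraries and 249 to 505 CPM in CD24Neg libraries. Between the groups this was the direction of Tet1, Tdg, Idh2, the methylation genes and most repair genes. The part of the cell cycle in those differences was not tested. Other 2-oxoglutarate dioxygenases lay near the shares of all genes tested, 35.5% higher and 34.3% lower. Of these 18 genes, 16 were tested, 6 were higher and 6 lower in CD24Mid, with a median of -0.18. With unscaled totals 13 were higher and 2 lower, with upper-quartile factors 6 and 3, and without CD24Neg replicates 2 and 8, where 17 were tested, 4 and 3. Hif1an, one of the 6 lower genes and named after its values were seen, lost its call of -0.24 (edgeR adjusted p = 0.037) in each of the 8 fits that left out 1 library. The demethylases Alkbh1 (1.52) and Fto (0.89) and the tRNA enzyme Alkbh8 (0.83, but not called without CD24Neg replicates 2 and 8 at 0.70, edgeR adjusted p = 0.0689) led the higher genes. The prolyl hydroxylase Egln3 (-4.84), the lysyl hydroxylase Plod1 (-1.52) and the prolyl hydroxylase Egln2 (-0.60, but 0.34 with unscaled totals) led the lower ones.

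**Figure D5:**
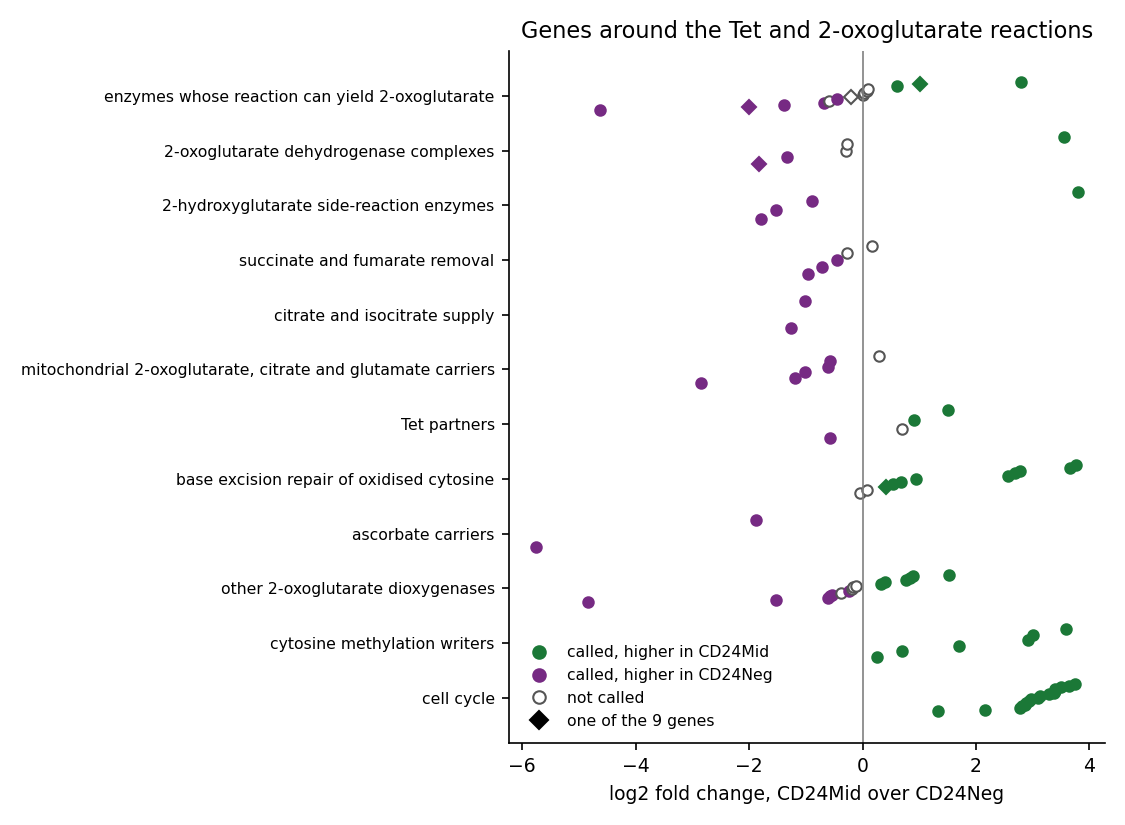
Log2 fold change, CD24Mid over CD24Neg, of the tested genes in 12 lists around the Tet and 2-oxoglutarate reactions, green where called higher in CD24Mid, purple where called higher in CD24Neg, open where not called, and diamonds for those of the 9 genes that a list holds. All 17 cell cycle genes and all 6 methylation writers lie right of 0, and the ascorbate carriers, citrate supply genes and most mitochondrial carriers lie left of it.

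The genes whose pattern over the 8 libraries was most like that of each Tet were found by the root mean square difference of mean-centred log2 CPM. For Tet1, among 11213 genes, they were Depdc1a (0.152), Ect2 (0.155) and Alms1 (0.16). For Tet2, among 7155 genes averaging a log2 CPM of 4 or more, they were Atp11b (0.063), Ankib1 (0.0657) and Ufl1 (0.0664). For Tet3, among the same 7155 genes, they were Klhl2 (0.0664), Ndufs1 (0.0674) and Mtor (0.0793). These distances describe 8 libraries in 2 groups and were not tested.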

How the data were processed

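RNA from 8 sorted samples (4 CD24Mid, 4 CD24Neg) was sequenced, and groups were taken from the sample titles. The submitters' processing notes name Bowtie 0.12.8 and the mouse build NCBIM37. The gene tables carry MMSEQ's column names, and its version, annotation release, strand setting and filters were not given in the sources used here. The authors deposited a whole-number count of fragments unique to each gene, not normalised. They also deposited an expression estimate whose scale no label states, read here from its values as the natural log of FPKM and exponentiated, and an effective length. Mapped fragments were 12401668 to 20445879 per library and 89.1% to 92.6% of them were unique to 1 gene. Unique counts are low for genes with near-identical copies, and antisense genes cannot be told apart.

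Names were found for 32897 of 37620 gene IDs (87.4%). Differences were tested in edgeR 4.0.16 (R 4.3.3) by the robust quasi-likelihood F test (TMM, filterByExpr, group as the one term; Benjamini-Hochberg over 12840 genes; threshold 0.05). TMM factors were 1.34 to 1.42 in CD24Mid and 0.697 to 0.757 in CD24Neg, and CPM values use them. A count of 3, taken as the detection floor, was 0.121 to 0.145 CPM in CD24Mid and 0.218 to 0.38 CPM in CD24Neg. SE is the log2 fold change over the root of F. Ratios were tested by exact two-sided permutation in SciPy 1.17.1. The fit was tested on simulated data in which a small part of the genes changed, equally in both directions. This test does not bear on the choice of scaling. The chi-square between replicates, over its degrees of freedom, was 10.8 or more, so none was counted as a repeat.

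The 9 genes, the 12 lists and the 12 marker lists were chosen with earlier results of these data known. Genes named were the 9, every gene of lists of 7 or fewer, otherwise the 3 called genes that changed most each way, and the 3 genes most like each Tet; Idh3b, Idh3g, Glud1 and Hif1an were added after their values were seen. Some genes of these pathways are not reported here. Alternatives were other scalings, no filter, DESeq2 1.42.0, estimated counts including shared reads and each replicate left out; leaving out CD24Neg replicates 2 and 8 together was chosen after seeing the data. Promoters are RefSeq's (GRCm38.p6); no coordinates were converted. PCR copies were not marked by molecular identifiers in the sources used here, so exact intervals cover counting error only.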

Additional observations from a re-analysis of the deposited data

Results flagged for a closer look

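In 30 groups of 4 libraries (the 9 genes and the 6 ratios, each in both groups of cells), the highest or lowest library was compared with the others by the gap to its neighbour over the whole range, and 2 groups exceeded the critical value that chance exceeds in about 1 in 20 groups. Idh1 stood at 104 CPM in CD24Mid replicate 1, above the 74.0 to 77.6 CPM of the other CD24Mid libraries and below every CD24Neg library. The Idh1 over Idh2 ratio stood at 0.419 in CD24Mid replicate 3, below the 0.548 to 0.569 of the other CD24Mid libraries and far below every CD24Neg library. With 30 groups screened, a count of 2 is near what chance alone gives.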

How the results depend on the processing

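Tet1, Tdg, Idh1, Idh2, Ogdh and 5 of the 6 ratios kept their direction and call in every alternative that was run for them. For Tet1 and its ratio to Tet3 the limits from the filter and from 14 CD24Neg reads remain. Leaving out 1 library at a time gave log2 fold changes of 2.85 to 3.42 for Tet1, 0.38 to 0.47 for Tdg, -2.12 to -1.87 for Idh1, 0.93 to 1.22 for Idh2, -1.91 to -1.70 for Ogdh, -0.72 to -0.50 for Tet2, -0.26 to -0.14 for Tet3, -0.24 to -0.07 for Idh3a and -0.43 to -0.34 for D2hgdh, ranges that include the fit without CD24Neg replicates 2 and 8. In edgeR's adjusted p, Tet2 was lost with upper-quartile factors (-0.40, 0.0644) and with totals without mitochondrial genes (-0.11, 0.615), and turned to 0.32 with unscaled totals (0.151). D2hgdh was lost with upper-quartile factors (-0.19, 0.0909) and turned to 0.53 unscaled (0.000405) and 0.10 without mitochondrial genes (0.326). Tet3 turned to 0.72 unscaled and 0.28 without mitochondrial genes and was called by DESeq2 (-0.24, adjusted p = 0.0389). Idh3a turned to 0.022 with upper-quartile factors, 0.74 unscaled and 0.31 without mitochondrial genes. The Tet2 over Tet3 difference ranged from -0.57 to -0.32 with 1 library left out, and passed without CD24Neg replicate 2 (-0.57, exact permutation p = 0.0286).

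With unscaled totals 8959 genes were called higher in CD24Mid and 1659 in CD24Neg, and without mitochondrial genes 7049 and 2592. Of the 9 genes, 6 were then higher in CD24Mid unscaled and 5 without mitochondrial genes, and 2 were higher in CD24Neg under these and under upper-quartile factors, beside 3 and 4 with TMM. List genes called higher in CD24Mid numbered 70 unscaled, beside 45 with TMM, and those higher in CD24Neg 13 unscaled and 18 without mitochondrial genes, beside 29. These scalings shift all genes by nearly the same amount, and the cause of the shift was not tested. The list genes that turned to positive values unscaled were Abat 0.27, Alkbh3 0.37, Alkbh4 0.40, Alkbh5 0.75, Dhtkd1 0.64, Dld 0.67, Egln2 0.34, Glud1 0.48, Gpt2 0.36, Hif1an 0.71, Jmjd6 0.78, Ldha 0.053, Neil1 0.90, Ogfod1 0.83, Ogt 0.37, P4ha1 0.55, Sdha 0.67, Sdhc 0.48, Sdhd 0.23, Slc25a1 0.32 and Slc25a13 0.37. Without mitochondrial genes they were Alkbh5 0.33, Dhtkd1 0.22, Dld 0.25, Glud1 0.065, Hif1an 0.28, Jmjd6 0.35, Neil1 0.47, Ogfod1 0.41, P4ha1 0.14, Sdha 0.24 and Sdhc 0.056, and with upper-quartile factors Alkbh5 0.033, Jmjd6 0.060, Neil1 0.18 and Ogfod1 0.12. Neil1 was also at 0.054 with no filter and Ogfod1 at 0.061 on estimated counts. With 1 library left out, Neil1 ranged from -0.062 to 0.093, Ogfod1 from -0.16 to 0.096, Bcat2 from -0.046 to 0.17, Idh3b from -0.075 to 0.12 and Idh3g from -0.042 to 0.12. Of 310 values of the main results under alternatives, 283 kept direction and call, and of 1392 for list genes 1270 did. No paired analysis was run, since the replicate numbers are odd in CD24Mid and even in CD24Neg and none is shared. Whether consecutive numbers came from the same animals is not stated in the labels, and no such pairing was fitted. Depth limits Tet1 in CD24Neg cells, where it had 14 reads in all.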
